A study of Mus musculus with 6 samples.

Results

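The AMPA and kainate receptor subunit genes were Gria1 to Gria4 and Grik1 to Grik5. They were the 9 rows of the deposited count table, of 53421 in all, whose gene identifiers carry these symbols in the GRCm38 annotation (GENCODE M21). All 9 had enough reads to be tested. The libraries were made from cultured cerebellar granule cells (GCs) of C57BL/6 wildtype mouse pups, labelled postnatal day 8, in B27-supplemented Neurobasal A-medium. All cultures had been infected with a lentiviral hairpin and then selected with puromycin. The hairpin targeted Ythdf2 in 3 libraries (shYthdf2) and was a control in the other 3 (shCtrl). Replicates of both groups carry the numbers 1, 2 and 4, and the names of the knockdown (KD) libraries carry a single hairpin number, so only 1 hairpin stands behind the KD group. Groups were taken from these library names. The sample titles contradict them, with the 2 groups swapped, and if the titles were right, every direction below would be inverted.

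The question of the comparison was which mRNAs change in GCs when YTHDF2 is knocked down. YTHDF2 is a cytoplasmic protein that binds mRNAs carrying N6-methyladenosine (m6A) and promotes their decay. AMPA and kainate receptors are tetrameric cation channels opened by glutamate, and AMPA receptors carry most of the fast excitatory current in the brain. GluA subunits (Gria genes) assemble with each other only, as do GluK subunits (Grik genes). GluK1, GluK2 and GluK3 can form channels alone, whereas GluK4 and GluK5 need a partner among them to reach the cell surface as working channels. The subunit mix sets how much calcium an AMPA receptor passes, because GluA2 subunits edited at the Q/R site block calcium entry. GCs receive their excitatory input from mossy fibers through AMPA and NMDA receptors, and their axons, the parallel fibers, release glutamate onto Purkinje cells.

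The libraries held 17246821 to 21546595 counts. Replicate 2 of each group stood apart from replicates 1 and 4, and the first 2 principal components of the log2 levels took 45.4% and 31.9% of the variance. On the first, shCtrl replicate 2 (-25.8) lay among the shYthdf2 libraries (-21.7, -34.7 and -20.8), far from shCtrl replicates 1 and 4 (50.2 and 52.8). Replicates 1 and 4 of a group still differed by more than counting noise, with a chi-square per degree of freedom of 4.68 in shCtrl and 3.34 in shYthdf2 over genes with at least 20 counts. That of replicate 2 against either was between 33.1 and 55.3. Values are normalized counts, which are reads per gene scaled to a common library size, unless another scale is named. A gene was called where the edgeR quasi-likelihood p, adjusted over all 17214 genes tested by the Benjamini-Hochberg method, was under 0.05. The targeted gene, Ythdf2, was at 501, 402 and 501 in the libraries labelled shYthdf2 and at 618, 841 and 628 in those labelled shCtrl. Its groups did not overlap, its mean was 67.3% of the control, and it was lower in every replicate pair, by -0.30, -1.06 and -0.33 on the log2 scale, the direction that the library names give. Its log2 fold change of -0.57 (SE 0.16) did not pass the test (adjusted p = 0.125, edgeR). Ythdf1 and Ythdf3, the other readers of the family, were at log2 fold changes of -0.27 (SE 0.11, edgeR adjusted p = 0.214) and 0.15 (SE 0.10, edgeR adjusted p = 0.442). The groups of Ythdf1 did not overlap either, and it was lower in every replicate pair, by -0.14, -0.44 and -0.22 on the log2 scale. Those of Ythdf3 overlapped.

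The 9 genes are close relatives, and the stretch of coding sequence around the Q/R site in the pore loop is shown because it marks the position that RNA editing rewrites in Gria2, Grik1 and Grik2 and because it shows how alike the members are. Each run holds 30 bases of the coding strand, 5′ to 3′, from a GENCODE M21 transcript on GRCm38, with the codon of the Q/R site in capitals.
Gria1: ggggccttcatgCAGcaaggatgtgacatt
Gria2: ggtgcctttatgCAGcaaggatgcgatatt
Gria3: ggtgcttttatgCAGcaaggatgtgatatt
Gria4: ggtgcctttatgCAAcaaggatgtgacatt
Grik1: ggagctctcatgCAGcaaggatcggagctg
Grik2: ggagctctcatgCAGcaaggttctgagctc
Grik3: ggctccctgatgCAGcaaggatctgaactg
Grik4: ggaggcttcatgCAGcaaggctccactatt
Grik5: ggtggcttcatgCAGcagggctcggagatc
The codon was CAG in 8 members and CAA in Gria4. It lies at chr3:80706911-80706913 in exon 11 of 16 of Gria2 (transcript Gria2-201, minus strand) and at chrX:41610265-41610267 in exon 11 of 16 of Gria3 (Gria3-201, plus strand). In Grik4 it lies at chr9:42547623-42547625 in exon 16 of 21 (minus strand), and in Grik2 at chr10:49244329-49244331 in exon 13 of 17 (Grik2-207, minus strand). Compared with Gria2, the run was identical at 28 of 30 bases in Gria3, 27 in Gria4 and 26 in Gria1, and at 20 to 23 in the kainate genes. Compared with Grik2, it was identical at 27 bases in Grik1, 23 in Grik3, 22 in Grik5 and 20 in Grik4. The counts are per gene, so neither editing at this codon nor the choice between the flip and flop exons can be read from them.

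The AMPA genes lie on 4 chromosomes of GRCm38. Gria1 (ENSMUSG00000020524) is at chr11:57011387-57330244 on the plus strand and Gria2 (ENSMUSG00000033981) at chr3:80681450-80802835 on the minus strand. Gria3 (ENSMUSG00000001986) is at chrX:41400854-41678601 on the plus strand and Gria4 (ENSMUSG00000025892) at chr9:4417896-4796234 on the minus strand. Of the kainate genes, Grik1 (ENSMUSG00000022935) is at chr16:87895900-88290265, Grik2 (ENSMUSG00000056073) at chr10:49094833-49788766 and Grik4 (ENSMUSG00000032017) at chr9:42518135-42944493, all on the minus strand. Grik3 (ENSMUSG00000001985) is at chr4:125490700-125714173 on the plus strand and Grik5 (ENSMUSG00000003378) at chr7:25009849-25072346 on the minus strand. No annotated gene overlapped a member on the opposite strand. The genes annotated inside them were small noncoding RNAs, sense intronic and unconfirmed transcripts and a pseudogene, all on the same strand, and the highest count among these was 298, of Ftl2-ps, which lies in an intron of Grik3 and shares no exon base with it.

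After YTHDF2 KD, 2 subunit genes rose, the AMPA receptor gene Gria3 and the kainate receptor gene Grik4. Each was at more than 200% of its control, at 216% for Gria3 and 220.0% for Grik4. The remaining 7 members did not pass the test, among them Gria2, Gria4, Grik2 and Grik5, the members with the highest levels per length. Members called were therefore 2 of 9, both higher, whereas 0.604% of all genes tested were called and 0.244% were called higher.

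Gria3 encodes GluA3, an AMPA subunit that pairs mainly with GluA2. After KD it was at 3265, 2199 and 3095, and in shCtrl at 1235, 1408 and 1326. All shYthdf2 libraries were above all shCtrl libraries, and within the shYthdf2 group replicate 2 was the lowest. The mean was 2853 ± 573 (SD, n = 3) against 1323 ± 86.9 (SD, n = 3), a log2 fold change of 1.11 (SE 0.16, edgeR adjusted p = 0.0496). Within replicate numbers, shYthdf2 minus shCtrl was 1.40, 0.64 and 1.22 on the log2 scale for replicates 1, 2 and 4, so the difference was positive in every pair and smallest in replicate 2. The two-sided exact permutation test of its normalized counts gave p = 0.1, the smallest value that 3 libraries against 3 allow.

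Grik4 encodes GluK4, a kainate subunit with high affinity for its ligand. After KD it was at 252, 231 and 307, and in shCtrl at 124, 126 and 109. The lowest shYthdf2 library was well above the highest shCtrl library, and replicate 2 did not depart from the other replicates here. The mean was 263 ± 39.2 against 119.6 ± 9.45 (SD, n = 3 each), a log2 fold change of 1.14 (SE 0.17, edgeR adjusted p = 0.0496). Within replicate numbers the log2 difference was 1.02, 0.87 and 1.50. The exact permutation p was 0.1, again the smallest allowed.

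By edgeR on all 6 libraries both calls sat at the threshold, and 9 of the 15 alternatives kept each of them. DESeq2 gave an adjusted p of 6.7e-07 for Gria3 and 1.0e-05 for Grik4, in a fit that called 7.67% of all genes tested. With the replicate number as a block, the edgeR adjusted p was 0.0503 for Gria3 and 0.0519 for Grik4, so that 0 of 9 members were called by edgeR where 1.35% of all genes were (0.529% higher). At an unadjusted p under 0.05 the block called 4 members, against 31.6% of all genes (15.4% higher). The calls of Gria3 and Grik4 were also lost under limma-voom, which called 0.139% of all genes tested. They were lost too when any of shYthdf2 replicate 1, shYthdf2 replicate 4, shCtrl replicate 1 or shCtrl replicate 4 was left out (edgeR adjusted p from 0.241 to 0.286 for both genes). In each of these leave-out fits, however, 0 genes of the whole table were called. The log2 fold change stayed between 1.00 and 1.31 for Gria3 and between 1.01 and 1.25 for Grik4 over the 15 alternatives.

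**Figure D1:**
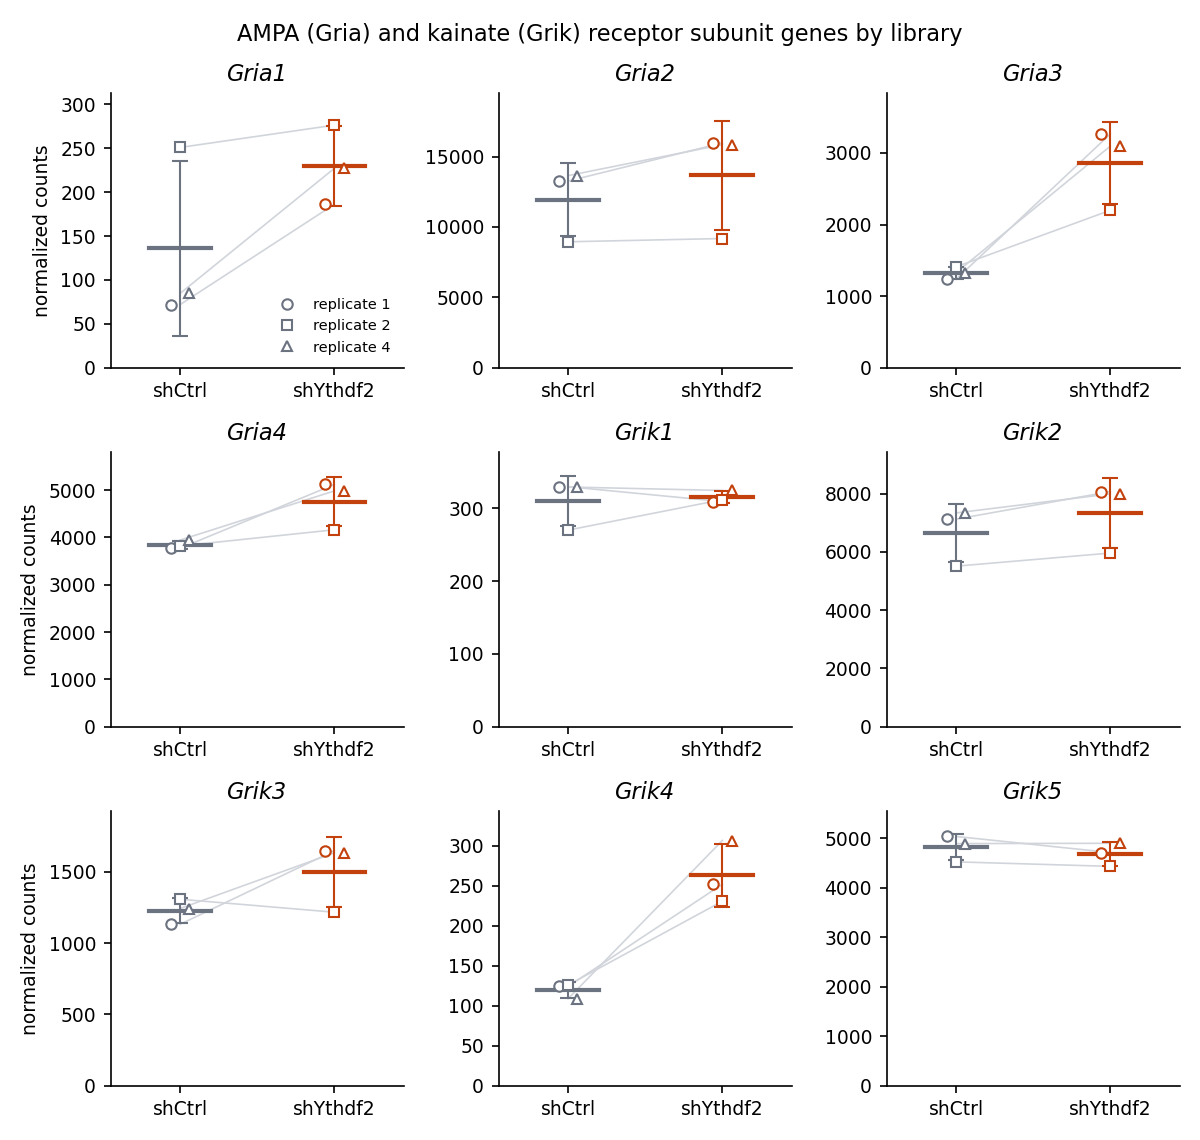
Normalized counts of the 9 subunit genes (y axis, from 0) in the shCtrl and shYthdf2 groups, with a symbol for each replicate number, grey lines joining libraries of the same number, and the group mean ± SD. The groups are apart for Gria3, Gria4 and Grik4, and the replicate 2 libraries (squares) are low for Gria2 and Grik2 in both groups and high for Gria1 in shCtrl.

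Gria4 encodes GluA4, the AMPA subunit typical of GCs together with GluA2. It was at 5120.3, 4162 and 4984 in shYthdf2 and at 3769.9, 3819 and 3944 in shCtrl. The groups did not overlap, but the difference in replicate 2 was small, at 0.12 on the log2 scale against 0.44 and 0.34 in replicates 1 and 4. Its log2 fold change was 0.31 (SE 0.11), with an unadjusted p of 0.0228 and an adjusted p of 0.174 by edgeR. Without shYthdf2 replicate 2 it was called (edgeR adjusted p = 0.0493), where 4.70% of all genes were. Members whose groups did not overlap were therefore 3 of 9, all higher in shYthdf2, where 26.0% of all genes tested did not overlap and 12.6% were higher without overlap. The same 3 members had an unadjusted p under 0.05, against a background of 20.1% of all genes tested in either direction and 9.50% higher.

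Gria2 encodes GluA2, the subunit that makes AMPA receptors impermeable to calcium after editing. It was at 15977, 9179 and 15850.0 in shYthdf2 and at 13260.3, 8947 and 13649 in shCtrl. The groups overlapped, and the spread came from replicate 2, which was the lowest library of both groups. The mean was 114% of the control, with a log2 fold change of 0.19 (SE 0.25, edgeR adjusted p = 0.708). Within replicate numbers the log2 difference was 0.27, 0.04 and 0.22.

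Gria1 encodes GluA1, the AMPA subunit of Bergmann glia and of many forebrain neurons. It was at 186, 276 and 227 in shYthdf2 and at 71.8, 251 and 84.6 in shCtrl. Replicate 2 was the highest library of each group, and the shCtrl value of replicate 2 lay within the shYthdf2 range. The log2 fold change was 0.76 (SE 0.47, edgeR adjusted p = 0.408). Without shCtrl replicate 2 it was 1.56 (edgeR adjusted p = 0.00780), in a fit that called 18.3% of all genes tested.

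Among the kainate genes, Grik2 encodes GluK2, the main channel-forming kainate subunit of GCs. It was at 8069, 5959.5 and 7991 in shYthdf2 and at 7123, 5509 and 7336 in shCtrl, low in replicate 2 of both groups, with a log2 fold change of 0.14 (SE 0.16, edgeR adjusted p = 0.673). Grik5 encodes GluK5, the usual partner of GluK2 in GCs. It was at 4715, 4435 and 4901 in shYthdf2 and at 5039, 4526 and 4895 in shCtrl, and its log2 fold change of -0.04 (SE 0.09, edgeR adjusted p = 0.838) was the only negative value among the members. Its groups overlapped.

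Grik3 encodes GluK3, a kainate subunit with low sensitivity to glutamate. It was at 1649.9, 1218 and 1634 in shYthdf2 and at 1133, 1309 and 1244 in shCtrl. It was higher in replicates 1 and 4, by 0.54 and 0.39 on the log2 scale, and at -0.10 in replicate 2, and its log2 fold change of 0.29 (SE 0.14) did not pass the test (edgeR adjusted p = 0.299). Grik1, which encodes GluK1, was at 309, 312 and 325 in shYthdf2 and at 330.0, 270.3 and 329.6 in shCtrl. Its log2 fold change was 0.03 (SE 0.14, edgeR adjusted p = 0.937), and the sign was not the same in every replicate pair.

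The log2 fold change was above 0 in 8 of 9 members, where 50.8% of all genes tested were above 0, and above 1 in 2 of 9, where 3.44% of all genes were. The median was 0.29 over the members, 0.53 over the 4 AMPA genes and 0.14 over the 5 kainate genes, and 0.01 over all genes tested. The direction of these values held with other scalings of the libraries, which moved the median of all genes by -0.0025 and 0.036.

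Because replicate 2 stood apart, the comparison was also made without both replicate 2 libraries, which leaves 2 libraries a group. Ythdf2 itself was lowered most in replicate 2, by -1.06 on the log2 scale against -0.30 and -0.33 in replicates 1 and 4. Without replicate 2 the log2 fold change of Ythdf2 was -0.32 (SE 0.07), so this fit keeps the pairs in which Ythdf2 differed least. Then 7 of 9 members were called higher by edgeR, but so many genes were called in that fit (52.7% in either direction and 25.8% higher, or 57.6% and 28.4% at an unadjusted p under 0.05) that the count has to be read against this background. The log2 fold change was 1.40 for Gria1, 0.24 for Gria2, 1.31 for Gria3, 0.39 for Gria4, 0.15 for Grik2, 0.46 for Grik3 and 1.25 for Grik4. The members not called were Grik1, at -0.06, and Grik5, at -0.05. With a term for replicate 2 in the fit of all 6 libraries, Gria3, Gria4 and Grik4 were called (edgeR adjusted p = 0.00956, 0.0297 and 0.00994), where 22.1% of all genes were (10.4% higher), and 6 members had an unadjusted p under 0.05, against 39.5% of all genes (19.2% higher).

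**Figure D2:**
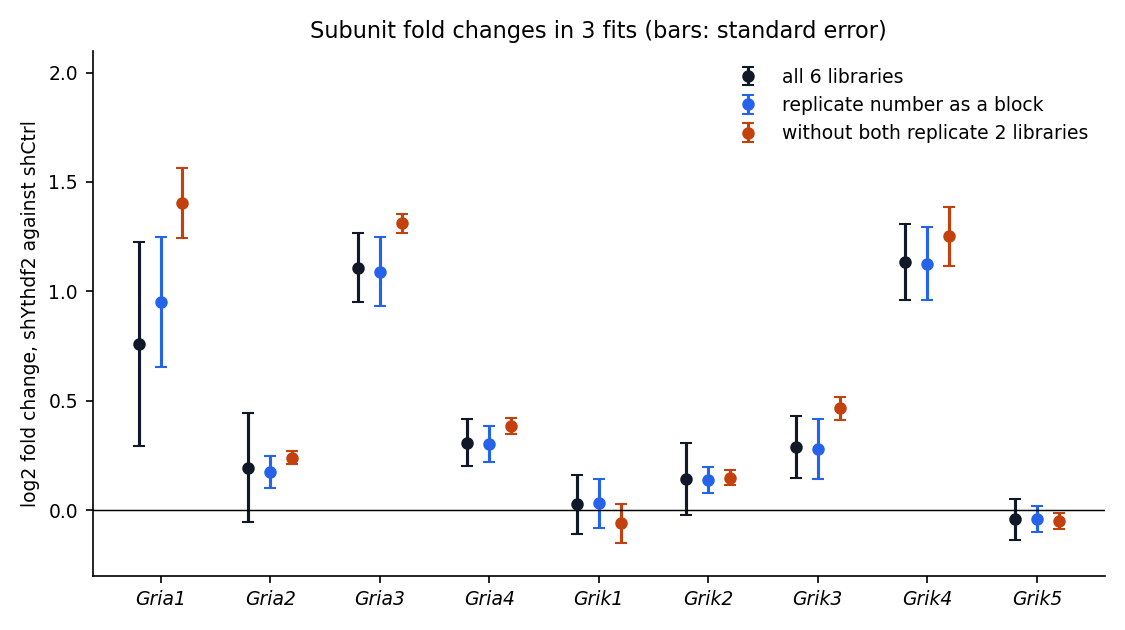
Log2 fold change of shYthdf2 against shCtrl (y axis) of the 9 subunit genes (x axis) with its standard error, fitted with edgeR on all 6 libraries (black), with the replicate number as a block (blue) and without both replicate 2 libraries (red). Gria3 and Grik4 lie between 1.09 and 1.31 in all 3 fits, Gria1 moves from 0.76 to 1.40, and Grik1 and Grik5 stay near 0.

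Levels can be compared between genes only per length. On a scale of normalized counts per kilobase of exon, divided by library size as RPKM values are, the shCtrl means were 49.2 for Grik5, 40.5 for Gria2, 32.1 for Gria4 and 26.5 for Grik2. They were 7.22 for Grik3 and 7.08 for Gria3, 2.43 for Grik1, 1.18 for Gria1 and 1.06 for Grik4. In this order the lowest shCtrl library of Gria4 was above the highest of Grik2, and likewise for Grik2 over Grik3 and Gria3 over Grik1. The other neighbours overlapped, although Grik5 was above Gria2 and Grik3 above Gria3 within each of the 3 shCtrl libraries. Grik5 was above 94.4% of the genes tested on this scale, Gria2 above 92.7%, Gria4 above 90.1% and Grik2 above 87.5%. Gria1 and Grik4 were above 26.9% and 25.2% only. In shYthdf2, Grik5 was above Gria2 in 1 of 3 libraries only. Gria3, at 15.3, was above Grik3, at 8.82, in every library, which it had not been in shCtrl, and Grik4, at 2.33, was next to Grik1, at 2.47. These places depend on the length used. With the longest transcript Gria2 had the highest mean of the members in shYthdf2, and Gria3 was above Grik3 in every library of both groups, at means of 13.4 and 7.22 in shCtrl.

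The make-up of each family was then described as the share of a subunit in the summed per-kilobase level of its family. Gria3 made up 15.04%, 14.7% and 14.5% of the AMPA subunit level in shYthdf2 and 7.89%, 10.5% and 8.14% in shCtrl. The groups were apart, with a mean of 14.7% ± 0.27 against 8.83% ± 1.42 (SD, n = 3 each) and a difference of 5.92 percentage points. Gria2 made up 46.7%, 38.9% and 47.2% in shYthdf2 and 53.7%, 42.1% and 53.1% in shCtrl. This share was lower in shYthdf2 in every replicate pair, by -7.04, -3.28 and -5.98 points, although the groups overlapped. The shares of a family add up to the whole, so a larger Gria3 share by itself makes the others smaller. The level of Gria2 was not lower but higher in every pair, by 0.27, 0.04 and 0.22 on the log2 scale. Gria4 was at means of 39.0% and 40.0% and Gria1 at 2.05% and 1.55%, in shYthdf2 and shCtrl, and both overlapped.

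In the kainate family, Grik4 made up 2.36%, 2.53% and 2.81% in shYthdf2 and 1.22%, 1.41% and 1.07% in shCtrl. Its groups were apart, with a difference of 1.33 points, and it was the least abundant kainate subunit in each shCtrl library. Grik5 made up 52.9% of the kainate subunit level in shYthdf2 and 57.0% in shCtrl, Grik2 32.1% and 30.6%, Grik3 9.69% and 8.41% and Grik1 2.75% and 2.81%, and these groups overlapped. Within replicate numbers, however, the Grik5 share was lower in shYthdf2 in every pair, by -6.19, -2.30 and -3.77 points. Its level differed by only -0.10, -0.03 and 0.002 on the log2 scale, and larger shares of other subunits also make its share smaller. The summed AMPA level was 103 ± 20.2 on this per-kilobase scale in shYthdf2 and 80.9 ± 7.93 in shCtrl, and the summed kainate level 90.6 ± 8.73 and 86.4 ± 6.37 (SD, n = 3 each). Both sums overlapped between the groups, but each was higher in shYthdf2 within every replicate number. For replicates 1, 2 and 4 the AMPA sum was 116, 80.1 and 114 against 83.7, 72.0 and 87.1, and the kainate sum 94.6, 80.6 and 96.7 against 90.1, 79.0 and 90.0. The shares were given without a test, since they are made from members that were chosen, and they depend on the exon length used.

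**Figure D3:**
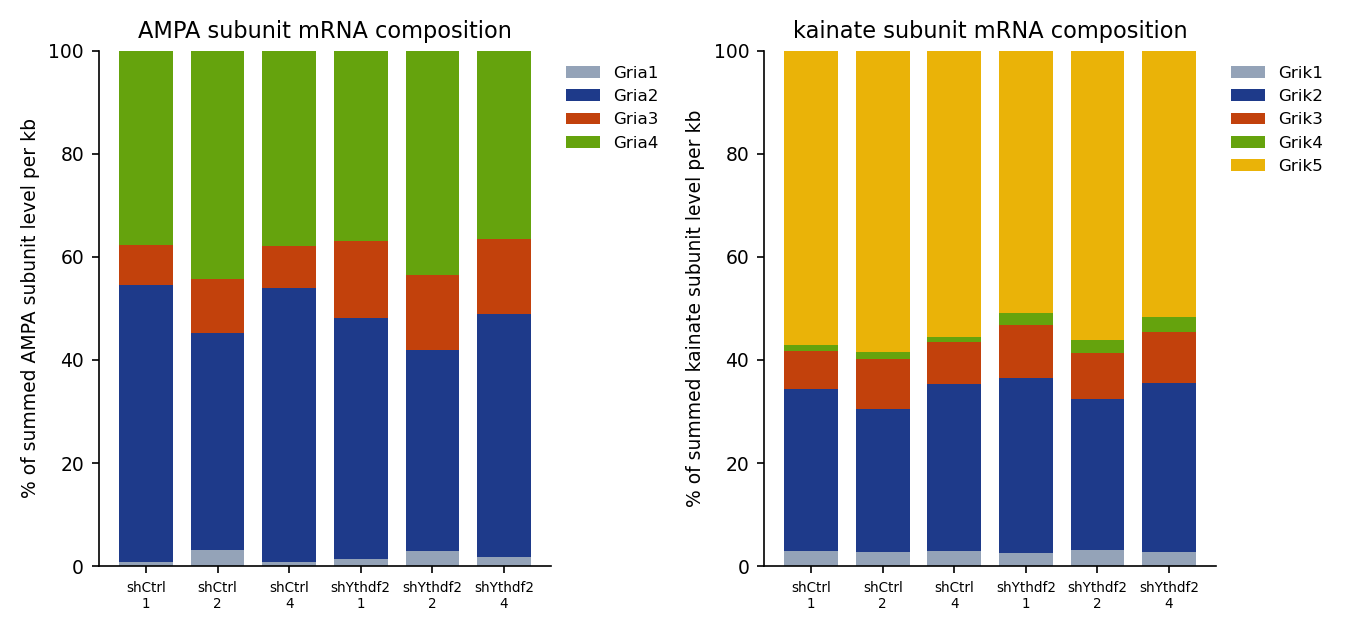
Stacked bars of the share of each subunit gene in the summed AMPA (left) or kainate (right) subunit level per kilobase (y axis, percent, from 0 to 100) in each of the 6 libraries. The Gria3 segment is between 14.5% and 15.04% in shYthdf2 and between 7.89% and 10.5% in shCtrl, and the thin Grik4 segment is also thicker in each shYthdf2 library.

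The auxiliary and regulatory partners of the receptors were described from lists written for this comparison, with earlier results of these data known. Of 15 auxiliary subunits of AMPA receptors, which shape the surface expression and gating of the channels, 10 had a log2 fold change above 0 and the median was 0.31. By edgeR 0 were called and 5 had an unadjusted p under 0.05, all higher, while DESeq2 called 3 and limma-voom 0. Over all genes tested DESeq2 called 7.67% and limma-voom 0.139%, and these shares, with the 20.1% above for unadjusted p, stand behind each count of this kind below. Shisa9 (CKAMP44), which slows the recovery of AMPA receptors from desensitization, was at 303, 322 and 275 in shYthdf2 and 113, 167 and 112 in shCtrl, with a log2 fold change of 1.20 (SE 0.20, edgeR adjusted p = 0.0527). The groups were apart, and with the replicate block it was called (edgeR adjusted p = 0.0450). Cacng2 encodes stargazin, without which GCs lack AMPA receptors at their surface. It was at 3817, 4257 and 3860.1 in shYthdf2 and 3023, 3077 and 3049 in shCtrl, with a log2 fold change of 0.38 (SE 0.09, edgeR adjusted p = 0.0872). Shisa7 (CKAMP59) was at a log2 fold change of 0.60 (SE 0.18, edgeR adjusted p = 0.131), with groups apart but almost no difference in replicate 2. Shisa6, named after its values were seen, was at 304, 326 and 304 in shYthdf2 and at 66.5, 289 and 75.8 in shCtrl, where replicate 2 was again high, with a log2 fold change of 1.11 (SE 0.53, edgeR adjusted p = 0.289).

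Of 8 assembly factors, which act on the formation of AMPA receptors in the endoplasmic reticulum, 5 were above 0 and the median log2 fold change was 0.06. None of the 8 was called by edgeR, DESeq2 or limma-voom, and 1 had an unadjusted edgeR p under 0.05. Porcn, Frrs1l and Abhd6 had the smallest p in this list, at log2 fold changes of 0.45, 0.27 and -0.21 (edgeR adjusted p = 0.222, 0.328 and 0.415). Of 12 genes of trafficking and clustering, 9 were below 0, the median was -0.12, and none was called by edgeR, DESeq2 or limma-voom, with 1 at an unadjusted edgeR p under 0.05. Grip1, a scaffold that binds the tails of GluA2 and GluA3, was at -0.59 (edgeR adjusted p = 0.154), the pentraxin receptor Nptxr at -0.31 (0.256) and Dlg1, which encodes the scaffold SAP97, at 0.22 (0.281).

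Of 5 kainate receptor partners, 3 were tested, and C1ql2 and C1ql3 had too few reads. The tested ones had a median log2 fold change of 0.72. By edgeR 0 were called and 1 had an unadjusted p under 0.05, and DESeq2 called 1 and limma-voom 0. Neto2, the auxiliary subunit that slows the gating of GluK2 receptors, was at 7027, 6175 and 6491 in shYthdf2 and 3470.1, 4974 and 3310.0 in shCtrl. The groups were apart, with a log2 fold change of 0.74 (SE 0.17, edgeR adjusted p = 0.0816). Kirrel3, a cell adhesion protein, was at 0.72 with overlapping groups (edgeR adjusted p = 0.264), and Neto1, with 28.1 to 47.0 normalized counts, at -0.04 (edgeR adjusted p = 0.960).

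Of the 3 genes for RNA editing enzymes, 0 were called by edgeR or limma-voom, 1 had an unadjusted edgeR p under 0.05, and DESeq2 called 1. Adarb1, which encodes ADAR2, the editor of the Q/R site of Gria2, was at a log2 fold change of 0.16 (SE 0.10, edgeR adjusted p = 0.413), and Adar at -0.29 (SE 0.15, edgeR adjusted p = 0.321). Adarb2, which encodes a family member without known editing activity, was at 1490.0, 920.1 and 1496 in shYthdf2 and 524, 729 and 559 in shCtrl. Its groups were apart, with a log2 fold change of 1.11 (SE 0.22, edgeR adjusted p = 0.0651).

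Of the 9 other ionotropic glutamate receptor subunits (NMDA and delta), 0 were called by edgeR, 2 had an unadjusted p under 0.05, both higher, and DESeq2 called 2 and limma-voom 0. Their median log2 fold change was 0.30. Grin2b, the NMDA subunit of immature GCs, was at 14110.3, 12386 and 13825 in shYthdf2 and 8251, 9156 and 8463 in shCtrl, with a log2 fold change of 0.64 (SE 0.10, edgeR adjusted p = 0.0508). It was called with the replicate block (edgeR adjusted p = 0.0496). Grin1, the obligatory NMDA subunit, was at -0.38 (SE 0.18, edgeR adjusted p = 0.277) with overlapping groups.

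**Figure D4:**
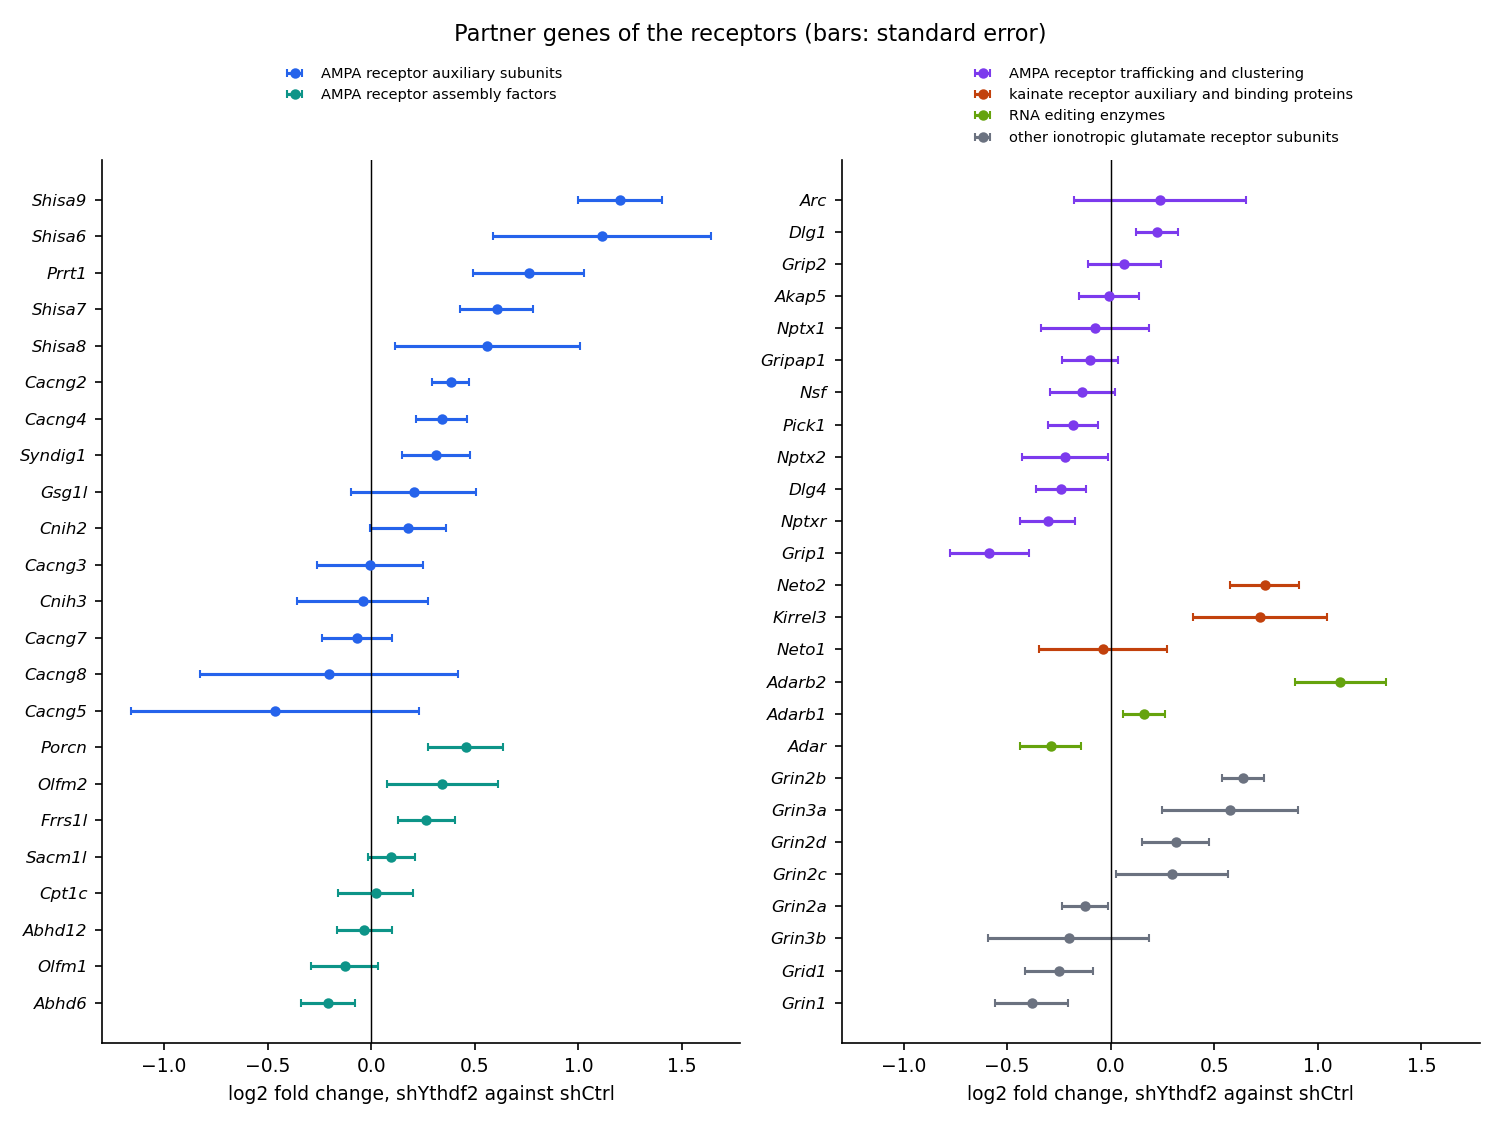
Log2 fold change of shYthdf2 against shCtrl (x axis) with its standard error for tested partner genes of the receptors (y axis), coloured by list and sorted within each list. Shisa9, Shisa6 and Adarb2 lie above 1, Grin2b and Neto2 at 0.64 and 0.74, and most trafficking genes lie at or below 0.

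Immediate-early genes, which neurons transcribe within minutes of activity, were described because excitatory input drives them. Of 15 tested, 14 had a log2 fold change below 0, the median was -1.97, and 4 were called, all lower, where 0.360% of all genes tested were called lower. The called genes were Npas4 (-4.89), Nr4a3 (-3.44), Fosl2 (-2.51) and Ier2 (-1.48), with edgeR adjusted p = 0.0430, 0.0430, 0.0447 and 0.0496. Npas4, a transcription factor induced by calcium entry, was at 240.5, 215 and 269.6 in shYthdf2 and at 9838, 1926 and 9753 in shCtrl. All shYthdf2 libraries were far below all shCtrl libraries, and shCtrl replicate 2 was the lowest control. With the replicate block 8 were called, all lower, where 0.819% of all genes were, and with DESeq2 13. With limma-voom 0 were called, as was the case when any of the 4 libraries of replicates 1 and 4 was left out of the edgeR fit. In those 4 edgeR fits, however, 0 genes of the whole table were called. There, 12 or 13 immediate-early genes had an unadjusted p under 0.05, all lower, where 11.2% to 11.9% of all genes did in either direction.

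The cultures held other cells than GCs, and some marker lists moved with members in some libraries but not in others. Summed GC markers were at 141826 to 143598 in shYthdf2 and 142311 to 159543 in shCtrl, so the labelled cell type was seen in every library, and of its 10 markers edgeR called 0 (2 at an unadjusted p under 0.05), DESeq2 2 and limma-voom 0. Summed GABAergic interneuron markers were at 17710.3, 20649 and 17611 in shYthdf2 and 11367, 16167 and 11305 in shCtrl, and summed Purkinje cell markers at 5429.8, 5733 and 5528 and at 3355, 4469.6 and 3407. Both sums were higher in every shYthdf2 library, as Gria3 and Grik4 were. Within shYthdf2, however, both sums were highest in replicate 2, where Gria3 (2199) and Grik4 (231) were lowest. Within shCtrl, replicate 2 was the highest library for both sums and for both genes. Of the 10 GABAergic markers 8 had a log2 fold change above 0 and 1, Tfap2b, was called (0.83, edgeR adjusted p = 0.0496). DESeq2 called 4 and limma-voom 0. At an unadjusted edgeR p under 0.05 there were 5, of which 4 were higher and 1 lower. Without overlap, 4 were higher and 1 lower. Of 9 Purkinje cell markers tested 6 were above 0 and edgeR called 0 (4 at an unadjusted p under 0.05), DESeq2 3 and limma-voom 0. Of these, 5 were higher without overlap and 0 lower, where 26.0% of all genes tested did not overlap and 12.6% were higher without overlap. The same shares stand behind the GABAergic markers without overlap.

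Summed oligodendrocyte lineage markers were at 16222, 20894 and 16696 in shYthdf2 and at 6186, 21271 and 5947 in shCtrl. Summed astrocyte and Bergmann glia markers were at 14150.0, 13123 and 14004 and at 9412, 15759.8 and 9535. Microglia markers summed to 1072, 408 and 1169 and to 216, 859 and 186. Endothelial, mural and meningeal markers summed to 3225, 8230.1 and 3289 and to 2524, 6332 and 2523. All of these sums were low in shCtrl replicates 1 and 4 and high in shCtrl replicate 2, as Gria1 was. In shYthdf2 the oligodendrocyte sum and the endothelial, mural and meningeal sum were highest in replicate 2, as Gria1 was. The astrocyte and microglia sums were lowest there. Markers of GC progenitors summed to 9172 to 9566 in shYthdf2 and 11501 to 13658 in shCtrl, lower without overlap. This sum was carried by 2 markers that were lower without overlap, where 26.0% of all genes tested did not overlap. However, 5 of the 7 tested had a log2 fold change above 0, 2 of them higher without overlap (12.6% of all genes tested), and the median was 0.37. The sums for unipolar brush cells (14289 to 14693 and 13482 to 14814) overlapped. No marker on these lists, tested or not, was at 0 in all libraries. The part of these cells in the values of Gria1, Gria3 and Grik4 was not tested, and in RNA from whole cultures fewer cells of a type and less RNA per cell cannot be told apart.

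**Figure D5:**
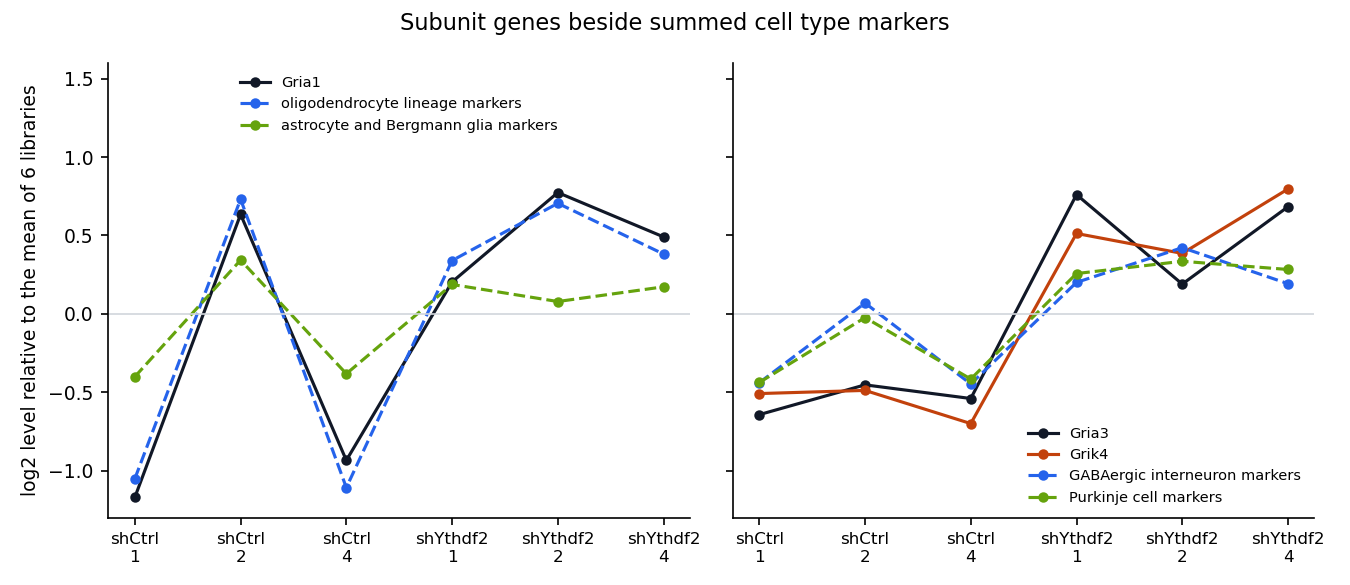
Log2 level of subunit genes (solid lines) and of summed cell type markers (dashed lines) relative to the mean of the 6 libraries (y axis) in each library (x axis). Gria1 (left) is low in shCtrl 1 and 4 together with the oligodendrocyte and astrocyte markers. Gria3 and Grik4 (right) are higher in all shYthdf2 libraries, as are the GABAergic interneuron and Purkinje cell markers. Within shYthdf2, the GABAergic and Purkinje cell markers are highest in replicate 2, where Gria3 and Grik4 are lowest.

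How alike the members were across libraries was described by Pearson's r of their log2 normalized counts over the 6 libraries, which share depth, replicate number and group. Over the 36 pairs of members, r ran from -0.80 (Gria1 with Grik5) to 0.99 (Gria2 with Grik2), and 29 pairs were above 0. Gria3 was most like Gria4 and Grik4 (0.96 each), and Gria4 was also like Grik3 (0.93). Among all 12556 genes with a symbol and a mean of at least 50 normalized counts, the gene most like Gria3 was Ttc21b (r = 0.998), a gene of ciliary transport, and the one most like Grik4 was Cachd1 (0.994), related to calcium channel subunits. The gene most like Gria1 was Lasp1 (0.998), Gria2 Dzip3 (1.000) and Gria4 Nfe2l3 (0.998). For the other kainate genes they were Misp for Grik1 (0.999), Gm43808 for Grik2 (0.999), Ncam1 for Grik3 (0.989) and Med24 for Grik5 (0.996). Each is the highest of 12556 values over only 6 libraries. A best r near 1 would therefore be found for almost any gene, and no particular likeness can be read from these values.

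YTHDF2 binds m6A, which is laid down mostly within a short sequence with the core GGACT, in DNA letters. This core was counted on the sense strand of 1 transcript per gene, as a description of the sequence and not of methylation. Of 13718 tested protein-coding genes, 92.2% held it at least once, with a median of 1.06 per kilobase. Gria3 held 3 copies in transcript Gria3-201 (0.578 per kilobase), all in the coding sequence, and Grik4 held 1 copy (0.170 per kilobase), also in the coding sequence. These densities were above those of 21.2% and 7.93% of the genes counted. They rest on few copies and on transcript length, since Grik1 held only 2 copies, in a transcript of 2942 bases. Whether YTHDF2 acts on any member through this core was not tested. Grik5, at 2.13 per kilobase, was above 90.5%. Gria1 held 1.44, Gria4 1.10, Grik2 0.955, Grik3 0.780, Grik1 0.680 and Gria2 0.675 copies per kilobase.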

How the data were processed

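Total RNA from 6 libraries was sequenced by the authors, and the deposited values are counts of reads per gene, as whole numbers without normalization. By the study's methods, low-quality reads and those with adapters or unknown bases were discarded, HISAT and TopHat2 mapped the rest to GRCm38, and HTSeq counted them per gene. The labels name Bowtie 0.12.2 and mm9, and another library kit than the methods do. No coordinates are in the table, and those given come from GENCODE M21 (GRCm38), to which 52403 identifiers were matched (785 of the others are genes outside the annotation). Near-identical stretches of related genes could affect how reads were assigned, and no strand setting is given in the sources used here.

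The test was edgeR's quasi-likelihood test (edgeR 4.0.16, R 4.3.3) with TMM factors, no covariate and Benjamini-Hochberg adjustment over all genes tested. Of the table, 17214 genes passed the filter (filterByExpr by group, at least 10 counts and 15 in total), holding 99.8% of all counts, and 36207 did not. For single members an exact permutation test, two-sided, was added. Alternatives were RLE size factors, no normalization factor, DESeq2 1.42.0, limma-voom (limma 3.58.1), no filter, a minimum of 10 counts in each library, a block for the replicate number, a term for replicate 2, both replicate 2 libraries left out and each library left out. For the shares, the longest transcript and no length were tried. Where 1 library of a group was left out, the fit pooled the spread of both groups. Tests were run on simulated data first. Levels per length used the union of exons. The study states a minimum of 3 independent biological replicates for all experiments, and p-values measure the spread between these libraries. Libraries of the same number deviated together from their group means (r = 0.251 in replicate 1, 0.362 in replicate 2 and 0.291 in replicate 4), and the numbers were taken to pair them. Replicates 1 and 4 also deviated together across numbers (r = 0.166 for shYthdf2 1 with shCtrl 4, 0.143 for shYthdf2 4 with shCtrl 1). The pairing within replicates 1 and 4 is therefore only weakly borne out by these values. Libraries held 17246821 to 21546595 counts, and counting error weighs most for the members with the fewest reads, Gria1, Grik1 and Grik4.

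The members and lists were chosen with earlier results of these data known. The genes named are the 9 members, the Ythdf genes, genes overlapping a member, in each partner list the called genes or, where fewer than 3 were called, the 3 with the smallest p, and for each member the gene with the highest r. A gene that this rule names is not reported here. Shisa6 and Tfap2b were named after their values were seen. Python 3.11.15, numpy 2.4.6, pandas 2.3.3, scipy 1.17.1 and matplotlib 3.10.9 were used.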

Additional observations from a re-analysis of the deposited data

How the results depend on the processing

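Over the 9 members and 15 alternatives (135 fold changes), 113 kept their direction and side of the adjusted threshold, 12 lost the call, 8 gained it and 2 changed sign. Both changes of sign were of Grik1, at a log2 fold change of -0.061 without both replicate 2 libraries and -0.064 without shCtrl replicate 2, and its range when 1 library was left out was -0.064 to 0.068. The 12 lost calls were of Gria3 and Grik4. Members called, 2 in all, were 0 with limma-voom, 0 with the replicate block, 7 without both replicate 2 libraries and 0 to 3 when 1 library was left out. The 3 were reached without shYthdf2 replicate 2 and without shCtrl replicate 2, where 4.70% and 18.3% of all genes were called. The 0 was reached in the leave-out fits in which 0 genes of the whole table were called. Members with an unadjusted p under 0.05, 3 in all, were 6 with a term for replicate 2, 7 without both replicate 2 libraries and 2 to 4 when 1 library was left out, where 11.2% to 34.0% of all genes were. Genes called in the whole table, 104 in all, were 1321 with DESeq2, 24 with limma-voom, 639 with no filter, 232 with the replicate block, 3799 with a term for replicate 2, 9186 without both replicate 2 libraries and 0 to 3239 when 1 library was left out. RLE size factors (105), no normalization factor (108) and at least 10 counts in every library (131) gave like counts, and the members called were 2 in each. The replicate block changed no other call among the members. The Gria3 share differed by 7.69 points with the longest transcript as length, and the Grik4 share by 1.04 points with the longest transcript and 0.948 with counts without length. Why the counts moved was not tested.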
